A study of Mus musculus with 2 samples.

Results

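The Krt14 and hair type I keratin subdomain is a stretch of 800 kb on mouse chromosome 11 (99500001 to 100300000, GRCm38) that holds keratin-associated protein genes, the hair keratin genes Krt31, Krt33a, Krt33b, Krt34 and Krt35, and, at its right end, Krt15, Krt9, Krt14, Krt16 and Krt17. Its members are the enriched Hi-C pixels with at least 1 end in that stretch. A pixel is a pair of 5 kb bins, its anchors, between which more contacts were counted than their surroundings predict. There were 16 such pixels of 10683 in the whole series, 6 of 5811 in the wild-type list and 10 of 4872 in the mutant list. The stretch was set by position and not by a cutoff on contact values, but members and lists were chosen with earlier results of these data known. A gene was assigned to an anchor where any part of the gene lay within 10 kb of the bin.

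Hi-C, in which DNA ends lying near each other in fixed nuclei are ligated and sequenced as pairs, was applied to sorted hair matrix keratinocytes, primary mouse cells taken at postnatal day 4.5. One group, WT, is labelled with a wild-type genotype, and the other, here DKO, carries deletions of both Tet2 and Tet3 together with Krt14-Cre, a Cre recombinase named for the promoter of Krt14. Each genotype had 1 library, and the labels say neither whether the WT mice carried the Cre nor how many mice were pooled. No strain or sex is used here. No test was possible without replicates, and a difference between the lists is a difference between these libraries. Contacts measure no transcripts, so neither the cell type nor the deletion could be checked against markers. The labels also do not say whether the Cre construct contains Krt14 sequence, and its part in the counts at Krt14 was not tested.

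Type I keratins are acidic intermediate filament proteins that polymerise only as partners of type II keratins, and in the mouse nearly all their genes lie in this cluster. Hair keratins such as those encoded by Krt31 and Krt35 build the hard shaft formed by descendants of the matrix cells, and keratin-associated proteins cross-link them. KRT14 instead marks basal keratinocytes of the epidermis and outer root sheath, where it pairs with KRT5. TET2 and TET3 oxidise 5-methylcytosine, the methyl mark found mainly at CG dinucleotides. Chromatin loops are typically anchored by CTCF and cohesin and can set apart the domains in which genes and enhancers meet.

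Of the RefSeq transcription start windows of GRCm38.p6 (250 bases before to 50 after a start), 3 lay wholly inside an anchor bin of this stretch, and they are shown because they are the annotated starts that the listed contacts touch. CG dinucleotides, where the mark that TET enzymes oxidise mainly lies, are in capitals. The first, of Krt14 (chr11:100205981-100206280, minus strand), surrounds an internal start 1480 bases inside the annotated 5′ end of the gene. It therefore does not cover the promoter at that end, and the table used here holds no window there. It lay in a bin that was an anchor of 2 DKO pixels and of no WT pixel. The second, of the long non-coding RNA gene Gm14206 (chr11:100291375-100291674, minus strand), also surrounds an internal start, 9502 bases inside the annotated 5′ end. It therefore does not cover the promoter at that end either. The window lay in a bin that anchored 1 WT and 2 DKO pixels. The third, of the long non-coding RNA gene Gm39022 (chr11:100166634-100166933, plus strand), lay in the anchor of 1 DKO pixel.
Krt14: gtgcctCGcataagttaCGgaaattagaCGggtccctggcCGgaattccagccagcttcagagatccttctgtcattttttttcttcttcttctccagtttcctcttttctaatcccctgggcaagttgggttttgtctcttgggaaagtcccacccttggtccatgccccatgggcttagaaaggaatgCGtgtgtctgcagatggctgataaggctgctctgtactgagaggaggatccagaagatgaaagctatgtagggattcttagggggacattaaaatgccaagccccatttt
Gm14206: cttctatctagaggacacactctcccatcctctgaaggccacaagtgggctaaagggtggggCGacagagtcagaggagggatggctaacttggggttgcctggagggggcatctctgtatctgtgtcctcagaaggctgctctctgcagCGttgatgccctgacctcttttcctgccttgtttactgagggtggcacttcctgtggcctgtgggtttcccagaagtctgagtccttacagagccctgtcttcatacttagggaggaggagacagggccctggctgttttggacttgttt
Gm39022: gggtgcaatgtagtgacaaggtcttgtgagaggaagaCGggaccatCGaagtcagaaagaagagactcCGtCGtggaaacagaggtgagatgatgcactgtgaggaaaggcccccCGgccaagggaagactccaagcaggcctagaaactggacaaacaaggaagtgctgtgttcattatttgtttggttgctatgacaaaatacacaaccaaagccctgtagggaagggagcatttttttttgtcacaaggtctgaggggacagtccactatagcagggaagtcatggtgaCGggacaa

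The 3 windows held 5, 2 and 6 CG dinucleotides, against a median of 7 over 32851 RefSeq windows of the same length. Start windows were found for 5 of the 10 named keratins, and those of Krt33b, Krt34, Krt31, Krt9 and Krt14 held 2 to 5 CG. All were therefore below the median of the genome. TATAAA, the core of a TATA box, was searched on both strands and was present in 13.6% of all windows. It occurred in the windows of Krt31, Krt33b and Krt34, the hair keratins, and not in those of Krt9 and Krt14. The Krt14 window is that of the internal start, so it says nothing of a TATA box at the annotated 5′ end. AGGGGGC, part of the motif of the loop factor CTCF, occurred in the Gm14206 window and in 10.6% of all windows, and in neither the Krt14 nor the Gm39022 window. CCCTC, the repeat that gave CTCF its name and that can share bases with AGGGGGC, occurred in the Gm14206 and Gm39022 windows and in 66% of all windows. Motif matches in these short windows describe letters and say nothing of binding.

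The whole array from Krt23 to Krt42 was enclosed in both libraries by contacts of about the same 2 ends. In WT, 3 pixels joined bins starting at 99460001 and 99465001 to bins starting at 100290001 and 100295001, inside Gm14206. The bin at 99460001 lies 12973 bases from Krt23, outside the 10 kb limit, and that at 99465001 lies 7973 bases from it. The spans of these pixels were 830, 835 and 830 kb. The WT pixel from 99460001 to 100290001 had 12 observed contacts, that from 99460001 to 100295001 had 15, and that from 99465001 to 100295001 had 13. In DKO, the pixel from 99465001 to 100290001, over 825 kb, had 16 contacts. A second DKO pixel, from 99465001 to 100280001 over 815 kb, had 14. The ends of the DKO pixel with 16 contacts lay within 1 bin of those of each WT pixel, and no long pixel was listed at exactly the same pair of bins in both libraries.

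Enrichment is the observed count over the count expected from a ring of surrounding pixels, the donut. The WT pixel with most contacts at these ends stood at 7.07 times expected (exact 95% Poisson interval 3.96 to 11.7), on an expected count of 2.12. The DKO pixel with 16 contacts stood at 8.04 times expected (4.60 to 13.1), on 1.99. These intervals, here and throughout, cover counting error only and take the expected count as fixed. The intervals of the 2 pixels overlapped almost wholly. The pixels lie at different pairs of bins, each that with most contacts at these ends in its library. The overlap is therefore no test of a difference between the libraries. Both pixels passed a stricter false discovery rate of 0.01 in all 4 neighbourhoods the caller uses, with largest values of 0.00437 in WT and 0.00143 in DKO. The other 2 WT pixels and the second DKO pixel did not, at 0.0398, 0.0385 and 0.0156.

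Contacts this long were uncommon in the lists. Pixels spanning 500 kb or more made up 3.25% of all WT pixels (189) and 2.59% of all DKO pixels (126), against 3 of 6 and 3 of 10 in this stretch. All 3 long WT pixels here and 2 of the 3 long DKO pixels had a counterpart, a pixel listed in the other library within 2 bins at both anchors. Over all pixels of 500 kb or more, the share with such a counterpart was 52.9% in WT and 62.7% in DKO. Neighbouring pixels share anchors: the 3 long WT pixels form 1 loop, that is 1 contact, and the 3 long DKO pixels form 2, the contact over 825 kb and another over 700 kb described further on. Median enrichment of all long pixels was 7.63 in WT and 7.44 in DKO, so the values of 7.07 and 8.04 lay near the middle for their span. The plot of span against enrichment shows this: long pixels of the region fall among the other long ones, at the right edge of each panel.

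**Figure D1:**
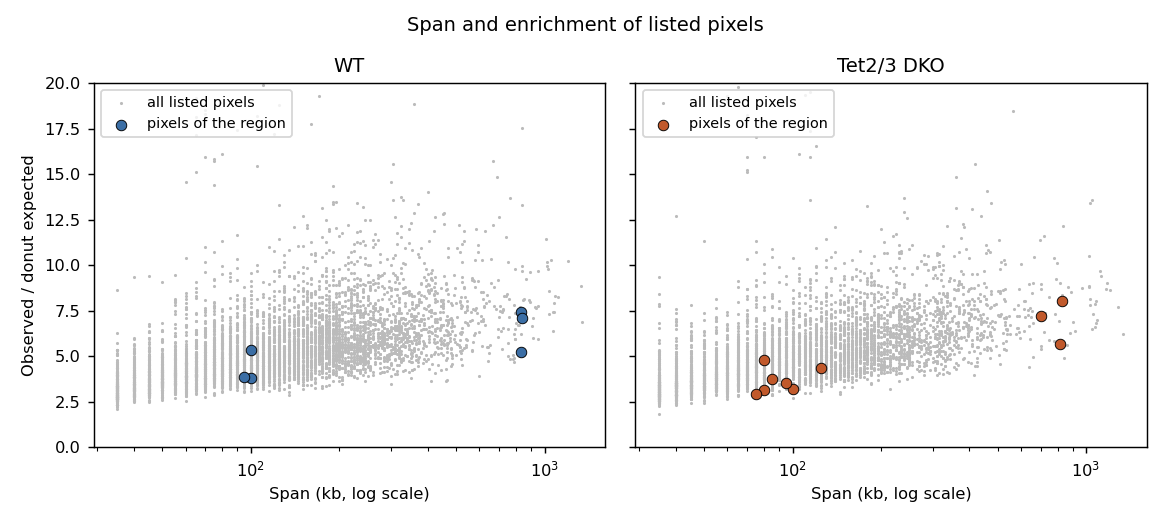
Span of each listed pixel (kb, log axis) against observed over donut expected contacts, for WT (left) and Tet2/3 DKO (right). Grey points are all listed pixels, except 102 in WT and 116 in DKO with ratios over 20, and coloured points are the 6 WT and 10 DKO pixels of the region, which form a short and a long group.

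All 10 named keratin genes lay inside the span of the long contact in each library. So did all 23 genes named Krtap on chromosome 11, which encode keratin-associated proteins, and 18 type I keratin genes in all, from Krt23 on the left to Krt42 on the right. In total 56 protein-coding genes lay between the inner ends of the anchors. Over the genome, 1.81% of 21896 protein-coding genes (396) lay inside a pixel of 500 kb or more in WT and 1.63% (356) in DKO. The genes here share the same few pixels, so their number is that of the array and not of separate contacts. The left anchor also ended contacts from the other side. In both libraries the bin starting at 99460001 was joined to bins at 99375001 and 99380001, between Krt28 and Krt10, with 22 and 20 contacts in WT and 20 and 27 in DKO. In WT that bin was an anchor in both directions. In DKO the leftward pixels used this bin and the rightward ones the neighbouring bin, starting at 99465001.

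**Figure D2:**
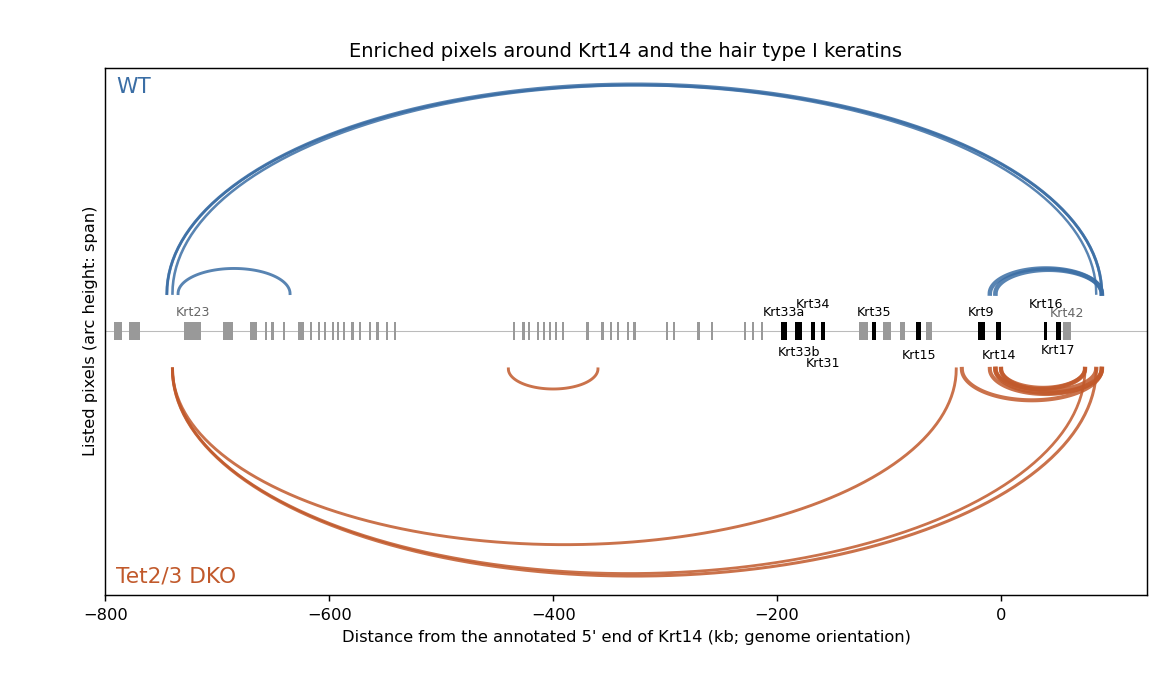
Listed pixels of the region as arcs between their anchors, WT above and Tet2/3 DKO below, with arc height scaled to span and line width to observed contacts. The horizontal axis is distance in kb from the annotated 5′ end of Krt14, black boxes are the 10 named keratins and grey boxes the other type I keratin, Krtap and protein-coding genes drawn. Long arcs over the whole array and short arcs from Krt14 appear in both libraries, and the 5 named hair keratins have no arc ending on them.

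Krt14 (chromosome 11, 100203162 to 100207510, gene 16664) was at the other contact found in both libraries. It was joined to Gm14206, across Krt16, Krt17 and Krt42, by 2 pixels in WT and 5 in DKO. The bin starting at 100195001, on the far side of the gene's 3′ end, was joined to the bin starting at 100295001 by 26 contacts in WT and 23 in DKO. The next bin, starting at 100200001, which holds the 3′ part of Krt14, was joined to the same partner by 27 contacts in WT and 27 in DKO. These are the only pixels of the stretch listed at exactly the same bins in both libraries, and their counts were nearly equal.

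At the first of these pixels enrichment was 3.80 times expected in WT (2.48 to 5.56) and 3.17 in DKO (2.01 to 4.76). The DKO/WT ratio was 0.836, with an exact conditional binomial interval of 0.456 to 1.52. At the second, enrichment was 3.87 in WT (2.55 to 5.63) and 3.55 in DKO (2.34 to 5.16), with a ratio of 0.917 (0.518 to 1.63). Neither ratio passed 1.5-fold, and both intervals included 1 and also ratios past 1.5-fold, so a change of that size was not detectable at these counts. Over the 1940 pixels listed in both libraries, 8.81% passed 1.5-fold in either direction, and the median ratio was 0.983. With other expected counts the ratio ran from 0.852 to 1.01 at the first pixel and from 0.822 to 1.11 at the second, so the direction at either pixel was not fixed. On observed counts alone the ratios were 0.885 and 1.

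A further 3 Krt14 pixels were listed in DKO and not in WT. One joined the bin starting at 100205001, which holds the annotated 5′ end of Krt14 and the internal start printed above, to the Gm14206 bin starting at 100290001. It had 25 contacts at 3.76 times expected (2.43 to 5.55), and lay 1 bin at each anchor from the pixel with 27 contacts that WT also lists. Another joined the same 5′ bin to the bin starting at 100280001, with 22 contacts at 2.94 times expected (1.84 to 4.45). The last joined the bin starting at 100200001 to that at 100280001, with 25 contacts at 3.16 times expected (2.05 to 4.67). Neither of these pixels ending at 100280001 had a WT pixel within 2 bins, the nearest being 3 bins away.

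The pixels ending at 100280001 were close to the limit of the list. The lists hold pixels with a false discovery rate under 0.1 in each neighbourhood, and the largest of the 4 rates was 0.0777 and 0.0919 at these pixels. For pixels with the same class of donut expected count as they have, the lowest observed counts in the WT list were 19 and 22, against 22 and 25 here. The pixel from the 5′ bin to 100290001 had a largest rate of 0.00999 and was the only DKO pixel at Krt14 to pass 0.01. In WT both Krt14 pixels passed it, at 0.00444 and 0.00194. Under this stricter rule Krt14 thus had 2 WT pixels from its 3′ side and 1 DKO pixel from its 5′ bin. That split rests on 1 cutoff, which the DKO pixel met narrowly. The DKO pixels at the same bins as the WT pixels, with 23 and 27 contacts, had largest rates of 0.0404 and 0.0272. Against the donut alone their rates were 0.00291 and 6.72e-05. A shift of the anchor between the libraries was not tested.

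Enrichment at Krt14 was below the median of pixels of similar span. Median enrichment over the pixels at Krt14 was 3.83 in WT and 3.17 in DKO, while the median over all pixels of 75 to 125 kb was 4.87 (1572 pixels) and 4.88 (1343 pixels). Their observed counts, 22 to 27, were at the same time above the median of 18 contacts of each list. Expected counts at the 2 pixels in both lists were 1.06 and 1.09 times as high in DKO as in WT, where the median over all pixels in both lists was 0.973. The gene most like Krt14 in its pixels, by number shared, was Gm14206, which was at 7 of 7 Krt14 pixels. Krt9, which encodes a keratin of palm and sole epidermis, was at 5 of 7, as the neighbour of Krt14 on the 3′ side. Its annotated 5′ end lies 1.755 kb from the bin starting at 100195001. No other gene lay within 10 kb of an anchor of a Krt14 pixel.

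**Figure D3:**
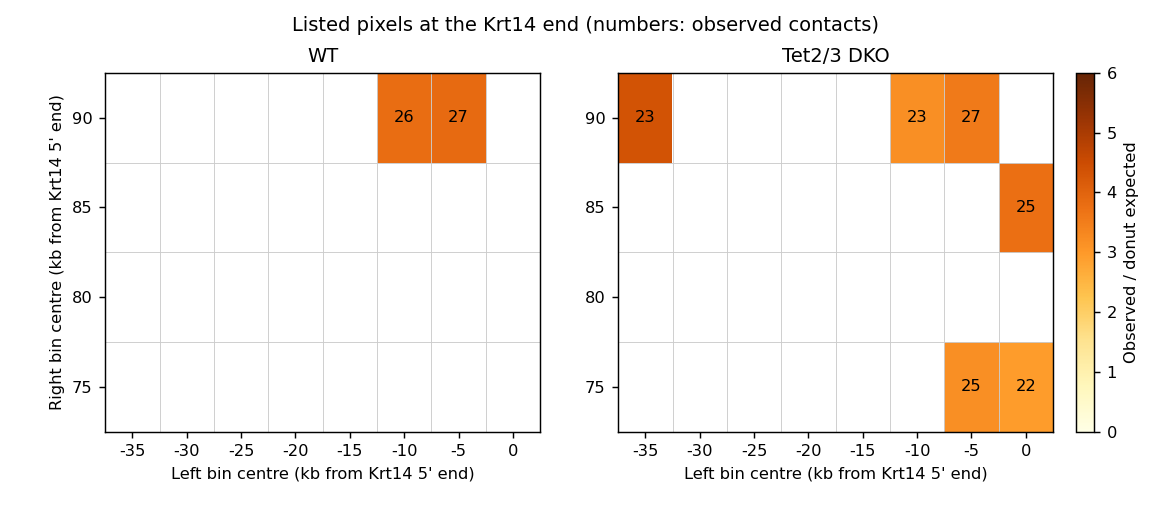
Pixels listed at the Krt14 end, with the left bin on the horizontal axis and the right bin on the vertical axis (centres in kb from the annotated 5′ end of Krt14), for WT (left) and Tet2/3 DKO (right). Numbers are observed contacts, colour is observed over donut expected, and white cells were not listed, which gives no count for them; pixels with 26 and 27 contacts in WT and 23 and 27 in DKO occupy the same cells.

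A DKO pixel also ran to Gm14206 from the left of Krt9. It joined the bin starting at 100170001, inside Gm39022, to 100295001 over a span of 125 kb, with 23 contacts at 4.34 times expected (2.75 to 6.51). Against the bottom-left neighbourhood its enrichment was 2.67, below that interval, and its largest false discovery rate was 0.0404. The adjoining bin, starting at 100165001 and also in Gm39022, was joined in DKO to 99465001 beside Krt23 over 700 kb. That pixel had 15 contacts at 7.21 times expected (4.04 to 11.9) and passed 0.01 in all neighbourhoods, with a largest rate of 0.00489. Neither pixel had a WT pixel within 2 bins. The nearest WT pixel to that from 100170001 was 5 bins away, the Krt14 pixel from 100195001 to 100295001. For the pixel ending at 100165001 it was 25 bins away. Gm39022, between Krt19 and Krt9, was thus listed in DKO at 1 pixel towards each end of the array, from different bins. With linkage at 50 kb in place of 20 kb, the DKO loops fell from 5 to 4, so the pixel from 100170001 is not clearly separate from the Krt14 contact.

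None of the 5 named hair keratin genes was within 10 kb of an anchor in either library. Over all protein-coding genes the share was 23.7% in WT and 22.4% in DKO. The 5 genes lie together between 100011199 and 100096224 and are not separate observations. None of 5 is therefore not read as a trait of hair keratins. The nearest anchor to Krt35, an early hair keratin of matrix and cuticle, was 98.8 kb away in WT and 68.8 kb in DKO. For Krt31, a cortex keratin, the distances were 144 kb and 114 kb, and for Krt34 they were 153 kb and 123 kb. Krt33b lay 165 kb from the nearest anchor in WT and 135 kb in DKO, and Krt33a 179 kb and 149 kb. The DKO distances were shorter through 1 bin, that starting at 100165001. Inside the long contact these genes thus sat in a stretch with no listed anchor. Pixels that did not pass the caller are not in the lists, so their counts are unknown.

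Krt15, a keratin of basal and bulge cells, lay 59.1 kb from the nearest anchor in WT and 29.1 kb in DKO. Krt16 and Krt17, keratins of the outer root sheath and of wounded or nail epithelium, lay inside the Krt14 contact but away from its anchors. Krt16 was 41.1 kb from the nearest anchor in WT and 31.1 kb in DKO, and Krt17 was 29.0 kb and 19.0 kb. Of the 10 keratins, 2 were therefore at an anchor in each library, Krt14 and Krt9 both times. Over all protein-coding genes the share at an anchor was 23.7% in WT and 22.4% in DKO, so 2 of 10 was near the background. Just outside the 10 kb limit lay Krt42, 10.05 kb from the DKO bin at 100280001, and just inside it Krt23, 7.973 kb from the bin at 99465001.

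Of 18 other type I keratins, 4 were at an anchor in WT and 4 in DKO, near the background of 23.7% and 22.4%. Both libraries had 3 of them at an anchor, where 14.8% of all protein-coding genes were so in both. Krt23, Krt10 and Krt28 were so in both libraries, Krt12, a keratin of the cornea, in WT, and Krt25, an inner root sheath keratin, in DKO. Only Krt23 of these was at a pixel of this stretch. The other 13 were at none, including the hair keratin genes Krt32, between Krt31 and Krt35, and Krt36, next to Krt35, as well as Krt13 and Krt19.

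Keratin-associated protein genes had 1 contact in each library, at different places. In WT, a pixel joined the bin starting at 99470001, 2.973 kb from Krt23, to that starting at 99570001, next to Krtap3-1, Krtap1-5 and Krtap1-4. It spanned 100 kb with 15 contacts at 5.32 times expected (2.98 to 8.77), and its largest false discovery rate was 0.00409. In DKO, a pixel joined 99765001, next to Gm11595, to 99845001, next to Krtap4-16, 2300003K06Rik and Gm11568, over 80 kb. It had 15 contacts at 4.80 times expected (2.68 to 7.91) and a largest rate of 0.0206. The nearest pixels of the other library were 22 and 59 bins away. Of the 23 Krtap genes, 3 were at an anchor in WT and 1 in DKO, none in both, and 19 in neither, beside the shares of all protein-coding genes of 23.7% in WT, 22.4% in DKO and 14.8% in both. Of the 15 remaining protein-coding genes of the stretch, 0 were at an anchor in WT and 3 in DKO. These 15 genes lie among the Krtap genes and are set apart by symbol only, so this split rests on naming. The genes at an anchor in each library lie at 1 pixel, so these counts follow from that pixel. For each of these pixels, the lowest observed count listed in the other library for the same class of expected count was 12, against 15 here.

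**Figure D4:**
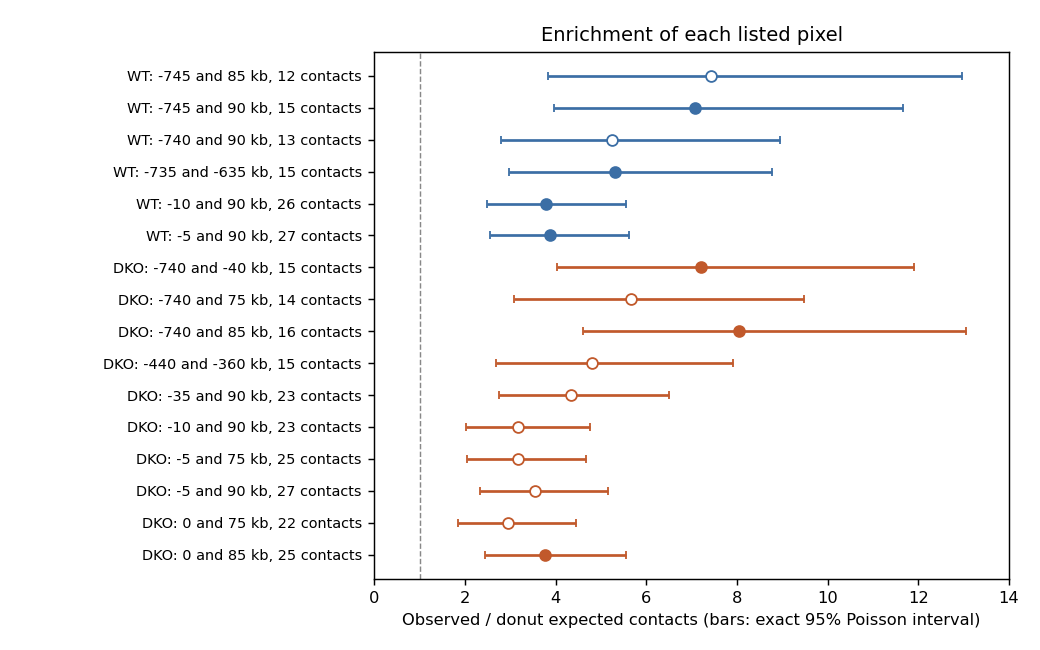
Observed over donut expected contacts of every pixel of the region, 6 in WT (blue) and 10 in Tet2/3 DKO (orange), with exact 95% Poisson intervals; labels give the anchor centres in kb from the annotated 5′ end of Krt14 and the observed contacts. Filled points passed a false discovery rate of 0.01 in all 4 neighbourhoods. Every interval lies above the dashed line at 1, but listing itself required an excess over expected, so this is no further support.

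Over the whole stretch the WT list held 6 pixels in 3 loops and the DKO list 10 in 5 loops, a loop being pixels joined where both anchors lie within 20 kb. Enrichment ran from 3.80 to 7.43 in WT with a median of 5.28, and from 2.94 to 8.04 in DKO with a median of 4.05. In WT 5 of 6 pixels had a counterpart in the other list (83.3%), and in DKO 5 of 10 (50%). Over all pixels these shares were 67.6% in WT and 70.5% in DKO. The shares in the stretch depended on the matching distance. Within 5 bins they were 83.3% in WT and 80% in DKO, and at the same pixel 33.3% and 20%. With rates under 0.01 in both lists they were 75% and 66.7%. Pixels of a loop are not independent, so no interval is given, and 2 of 3 WT loops and 2 of 5 DKO loops held a pixel with a counterpart. At a false discovery rate under 0.01 the order of the lists turned around, to 4 WT and 3 DKO pixels. Of all pixels, 43.0% passed that rate in WT and 41.3% in DKO. The stretch held 7.5 pixels per Mb in WT and 12.5 in DKO, against 5.30 and 4.49 over chromosome 11 up to its last annotated gene. These densities are not on the same footing. For the stretch, and for the keratin areas given next, a pixel counted with only 1 anchor inside, which favours a short area over a chromosome. With both anchors required inside the stretch, 2 of the 6 WT and 7 of the 10 DKO pixels remained. The WT stretch was then no denser than the chromosome, while the DKO stretch was still denser. This rule is uneven in the other direction. Pixels spanning more than the 800 kb of the stretch cannot have both anchors inside it, which removes every long WT pixel. From 98900001 to 99500000, the adjoining part of the array with Krt25 to Krt28 and Krt10, there were 30 and 21.7 pixels per Mb, counting pixels that reach into this stretch. The type II keratin locus of chromosome 15 (101348315 to 102032026) held 26.3 per Mb in both lists.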

How the data were processed

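Each library was deposited as a list of enriched pixels at 5 kb, written by juicer_tools 1.22.01 per the file headers. Juicer and GRCm38 (mm10) are named in the submitters' processing notes. The aligner, the read filters, the treatment of reads that fit several near-identical Krtap copies, and the depth of sequencing are, in the sources used here, not given. The deposited observed values are raw contact counts, and the sums of 113348 (WT) and 95103 (DKO) are of listed pixels only and not depths. The deposited expected values are a signal on the same scale from 4 neighbourhoods (bottom-left, donut, horizontal and vertical). The deposited q-values are false discovery rates, all under 0.1. A deposited score numbers the class of each expected count.

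Cells were fixed in 2% formaldehyde for 10 minutes, per the labels' protocols, and read pairs were of 150 bp. Pixels were kept where an anchor overlapped the stretch, joined by single linkage at 20 kb, and matched within 2 bins. Ratios of enrichments had conditional binomial intervals. Genes and start windows came from RefSeq tables of GRCm38.p6, by symbol. All 10 keratins were found, and 5 had a start window. Named were these keratins, all loops, genes within 10 kb of their anchors, other type I keratins and Krtap genes there, and genes sharing pixels with Krt14. The Gm14206 and Gm39022 windows were added after their values were seen. Members and lists were chosen with earlier results of these data known. Functions were tested on simulated data. Python 3.11.15, scipy 1.17.1, pandas 2.3.3 and matplotlib 3.10.9 were used. Coordinates are 1-based.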

Additional observations from a re-analysis of the deposited data

How the results depend on the processing

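No paired analysis was possible because there is a single library of each kind, which also leaves no replicate to omit. Of 88 recomputed values 71 stayed within their interval (for shares, one that treats pixels as independent), or within 1.5 times for counts, and 17 moved. With at least 20 observed counts, which removes every long pixel, pixels fell to 2 in WT and 6 in DKO and loops to 1 and 2. At a false discovery rate under 0.01, DKO pixels fell to 3, DKO loops to 3 and the DKO members at an anchor to 1, Krt14, while WT kept 4 pixels, 3 loops and 2 members. With both anchors required inside the stretch there were 2 WT pixels in 1 loop, and 3 DKO loops. Matching at the same pixel lowered the WT share with a counterpart to 33.3%. The DKO share stayed within its wide interval but ran from 20% at the same pixel to 80% within 5 bins. With the gene body overlapping the anchor bin, members at an anchor fell to 1 in each library, and type I keratins to 1 in WT and 3 in DKO. Within 20 kb the DKO count of type I keratins rose to 12. The DKO pixel at 100170001 stood at 2.67 against the bottom-left neighbourhood. Counts of 12 to 27 contacts per pixel, and lists without values for other pixels, limit every comparison here.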
